A study of Ovis aries with 15 samples.

Results

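The interleukin 1 and interleukin 18 inflammasome axis was followed through 10 genes in sheep kidney RNA-seq. They are the ligand genes IL1B and IL18, the receptor genes IL1R1, IL1RAP and IL18R1, the decoy or antagonist genes IL1R2, IL1RN and IL18BP, and the sensor and protease genes NLRP3 and CASP1. They were chosen by symbol, and all 10 were found among the 25592 genes of the deposited table.

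Interleukin 1 beta and interleukin 18 are made as inactive precursors. When NLRP3 senses cell damage, it assembles an inflammasome with the adapter ASC, and the caspase-1 recruited there cuts both precursors into active cytokines. Interleukin 1 beta signals through IL1R1 paired with IL1RAP, and its action is limited by the receptor antagonist IL1RN and by IL1R2, a receptor that binds the cytokine without signalling. Interleukin 18 signals through IL18R1, and the soluble protein IL18BP captures it. In the kidney, interleukin 18 is known to be made by tubular cells, while interleukin 1 beta, NLRP3 and caspase-1 are best known from macrophages and monocytes.

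The study fed aflatoxin B1 (AFB1), a mold toxin, to sheep, with or without curcumin, a plant polyphenol. The animals were 4 months old, all male, and a cross of Dorper with Small-tailed Han, and the diets lasted 21 days. CON sheep received a total mixed ration alone, AFB1 sheep the ration with AFB1 at 500 µg/kg dry matter, and AFB1_CUR sheep the same AFB1 dose with curcumin at 800 mg/kg dry matter. The study had 6 sheep per group, of which 5 per group have a kidney library here. No group received curcumin without AFB1, so the curcumin comparisons concern AFB1-fed sheep.

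The primer pairs that the study designed for its RT-qPCR of both ligands are shown because they fix which transcripts it measured by that assay. Each lists a transcript that the table also assigns to the gene of that name. They are written 5′ to 3′, and no base is marked.
IL1B forward: acagatgaagagctgcaccc
IL1B reverse: agacatgttcgtaggcacgg
IL18 forward: aaatggcgacctggaatcaga
IL18 reverse: acctctagtgaggctgtcctt

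The genes lie in few places. IL18R1 (chromosome 3, 99311249 to 99347956), IL1R1 (99547239 to 99641780) and IL1R2 (99742003 to 99778253), all on the minus strand, share a stretch of 467005 bases with IL1RL1, the receptor gene of interleukin 33. IL1RN (59836968 to 59859203, minus) and IL1B (60147579 to 60155344, plus) share 318377 bases of the same chromosome with IL36RN and IL36B. IL1RAP is on chromosome 1 (197444136 to 197598064, minus), NLRP3 on chromosome 5 (38411985 to 38459482, plus) and IL18 on chromosome 15 (22156486 to 22185715, minus). Positions are those of the deposited table. For 99.6% of the genes matched by symbol, start and end equal those of the RefSeq table of assembly ARS-UI_Ramb_v3.0.

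A pair of the genes overlap a neighbour on the same strand, and no source used here states how reads in the overlap were counted. IL18BP (chromosome 15, 50368707 to 50370734, plus) lies with all of its 2028 bases inside RNF121, a ring finger protein gene on the same strand, whose level was 7.80 to 16.6 FPKM. CASP1 (chromosome 15, 2913150 to 2932734, plus) shares 4290 bases, 21.9% of its span, with LOC101117272, whose description in the table names caspase-13 of sheep, caspase-4 of cattle and an uncharacterized goat protein. That gene stood at 9.43 to 26.5 FPKM on the same strand, so the values of IL18BP and CASP1 are uncertain.

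Several libraries stood apart from the rest. AFB1 replicate 1, labelled kidney, had a mean log2(FPKM + 1) of 10.38 over 20 hepatocyte markers, against 1.43 to 2.71 in the other 14 libraries, and of 1.71 over 8 proximal tubule markers, against 6.52 to 8.23. It is shown apart, and tests use the other 14 libraries, with 50255295 to 68747047 counts each. AFB1 replicate 2 and AFB1_CUR replicate 2 had the highest leukocyte markers among those 14. All 11 macrophage and monocyte markers and all 7 T and NK cell markers were above the other 12 libraries in both. Their summed B and plasma cell markers were 731 and 1107 FPKM, against 9.05 to 105 FPKM, and the transcript of JCHAIN, the immunoglobulin joining chain, was at 559 and 856 FPKM against 6.28 to 82.3. Summed proximal tubule markers were lower in both, at 1035 and 964 FPKM against at least 1158. By mean log2(FPKM + 1) of these markers, only AFB1_CUR replicate 2 was below the other 12 libraries (6.517 against 6.726 to 8.235). AFB1 replicate 2 was inside their range, at 6.749. Summed loop and collecting duct markers differed in the pair, at 2723 FPKM in AFB1 replicate 2 and 781 in AFB1_CUR replicate 2, against 904 to 2734. AFB1 replicate 2 was also above the other 12 libraries in 12 of 20 hepatocyte markers, and AFB1_CUR replicate 2 in 0. Summed hepatocyte markers were 265 FPKM in AFB1 replicate 2, inside the 221 to 509 of the 12. In AFB1_CUR replicate 2 they were 113 FPKM, below all 12. The adipocyte gene FABP4 was at 62.9 FPKM in AFB1 replicate 2 and 5.75 in AFB1_CUR replicate 2, against at most 4.59. In AFB1_CUR against AFB1, 7 of 19 tested hepatocyte markers were lower at an unadjusted p under 0.05 with a fold over 1.5, and 0 of 18 were without this pair of libraries, against 1.80% and 2.44% of all genes past these thresholds in either direction. The adrenal gene CYP11A1 was at 1.43 and 4.57 FPKM in this pair and listed at 0 in the other 12. In bulk tissue, fewer cells of a type and less RNA per cell cannot be told apart.

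All 10 genes were expressed at a low level. FPKM, the fragments of a gene scaled by its length and by library depth, allows levels of different genes to be set side by side. The places of IL18BP and CASP1 in the order carry the uncertainty of their overlaps. IL1R1 and IL18BP had the highest mean levels over the 14 libraries, 2.64 ± 1.14 and 2.61 ± 0.846 FPKM (SD, n = 14). IL1RAP (1.69), IL18 (1.51), IL1RN (1.27) and CASP1 (1.21) followed, and IL1B (0.728), NLRP3 (0.621), IL18R1 (0.521) and IL1R2 (0.499) were lowest. Neighbours in this order mostly overlapped: IL1R1 was above IL18BP in 8 of 14 libraries, IL1RAP above IL18 in 9, IL1RN above CASP1 in 8 and IL18R1 above IL1R2 in 7. The step from IL18BP to IL1RAP was the one most libraries shared, in 13 of 14. Behind these levels stood few reads for some genes: 12 to 75 counts per library for IL1B and 39 to 147 for IL1R2, against 1322 to 4325 for IL1R1.

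Among the ligands, IL1B did not separate the diets. Its level was 0.835, 0.654, 1.01, 0.670 and 0.408 FPKM in CON replicates 1 to 5. AFB1 replicates 2 to 5 were at 0.829, 0.991, 0.818 and 0.174 FPKM, and AFB1_CUR replicates 1 to 5 at 0.647, 1.24, 0.551, 0.425 and 0.935 FPKM. The 3 ranges overlapped, with AFB1 replicate 5 lowest and AFB1_CUR replicate 2 highest of the 14. The fitted log2 fold change of counts was -0.07 (SE 0.44) in AFB1 against CON, 0.05 (SE 0.44) in AFB1_CUR against AFB1 and -0.02 (SE 0.41) in AFB1_CUR against CON.

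AFB1 replicate 1 held 6.0 FPKM of IL1B, 8.07 times the median of the other 14 libraries. With that library in the fit, IL1B became 1.78 higher in AFB1 than in CON on the log2 scale (SE 0.79, edgeR quasi-likelihood unadjusted p = 0.0420, adjusted p = 0.526) and fell by 1.81 in AFB1_CUR against AFB1 (SE 0.80, unadjusted p = 0.0388, adjusted p = 0.667). Both passed the screening thresholds, an unadjusted p under 0.05 with a fold change over 1.5, and both rest on that library. The exact permutation test of the group means of log2(FPKM + 1), which gave p = 0.587 and p = 0.635, did not separate the groups with it included.

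IL18, the other ligand, was at 0.928, 1.48, 1.54, 0.850 and 1.14 FPKM in CON. It was at 2.22, 1.69, 1.69 and 0.897 FPKM in AFB1 replicates 2 to 5, and at 1.03, 3.59, 1.67, 1.03 and 1.36 FPKM in AFB1_CUR. In AFB1, 3 of 4 libraries were above every CON library and the fourth was inside their range. The log2 fold change against CON was 0.44 in AFB1 (SE 0.31, unadjusted p = 0.180) and 0.44 in AFB1_CUR (SE 0.30, unadjusted p = 0.159), and between the AFB1-fed groups it was 0.00 (SE 0.31). Without AFB1 replicate 2 and AFB1_CUR replicate 2, the estimates against CON were 0.29 (SE 0.25) and 0.09 (SE 0.23). In AFB1 replicate 1, IL18 had its lowest level of all 15 libraries, 0.676 FPKM.

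**Figure D1:**
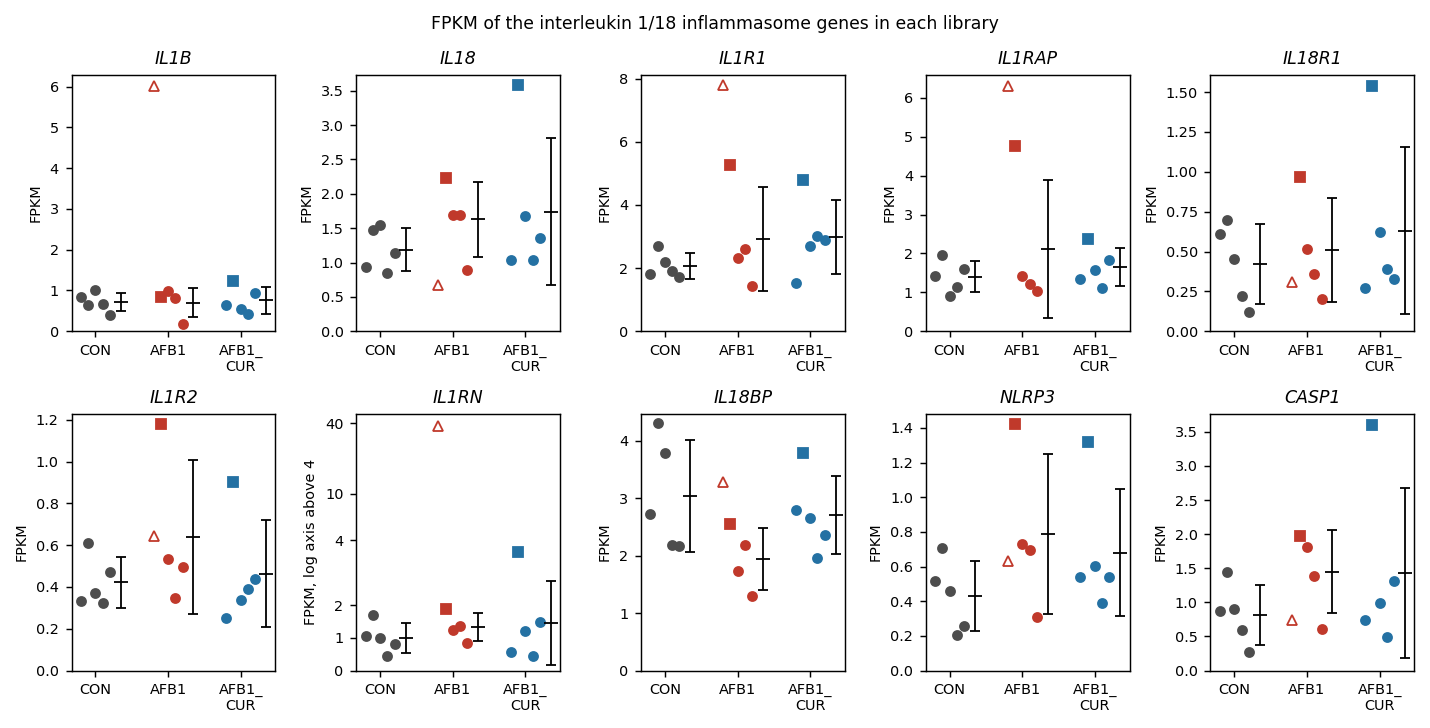
FPKM of each gene (vertical axes, linear, with IL1RN on a log axis above 4) by diet group, 1 point per library. Bars give mean ± SD of 5 CON, 4 AFB1 and 5 AFB1_CUR libraries; the open triangle is AFB1 replicate 1, left out of the bars, and squares are AFB1 replicate 2 and AFB1_CUR replicate 2. Both squares lie above all other filled points for 8 of the 10 genes, all but IL1B and IL18BP, and the triangle reaches 38.1 FPKM for IL1RN.

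Of the receptors, IL1R1, which carries the interleukin 1 signal, was at 1.80, 2.71, 2.2, 1.91 and 1.71 FPKM in CON. In AFB1 replicates 2 to 5 it was at 5.26, 2.33, 2.62 and 1.42 FPKM, and in AFB1_CUR at 1.54, 4.80, 2.70, 3.02 and 2.88 FPKM. The groups overlapped: 1 of 4 AFB1 libraries and 3 of 5 AFB1_CUR libraries were above all of CON, and each group also had 1 library below all of CON. The log2 fold change against CON was 0.46 in AFB1 (SE 0.29, unadjusted p = 0.127) and 0.44 in AFB1_CUR (SE 0.27, unadjusted p = 0.123). Leaving out both libraries with high leukocyte markers took the AFB1 estimate to 0.07 (SE 0.22) and the AFB1_CUR estimate to 0.28 (SE 0.20). Leaving out AFB1 replicate 5 alone took the AFB1 estimate past the thresholds, to 0.65 (SE 0.28, unadjusted p = 0.0340).

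IL1RAP, the accessory chain of that receptor, had its highest level in AFB1 replicate 2. It was at 1.42, 1.95, 0.910, 1.13 and 1.59 FPKM in CON and at 1.34, 2.37, 1.57, 1.12 and 1.84 FPKM in AFB1_CUR. AFB1 replicates 2 to 5 were at 4.75, 1.43, 1.22 and 1.03 FPKM. The last 3 of these lay within the CON range, and AFB1 replicate 2 stood above it, as AFB1_CUR replicate 2 did. The estimate in AFB1 against CON, 0.55 (SE 0.36, unadjusted p = 0.15), changed to -0.14 (SE 0.23) without AFB1 replicate 2, and that in AFB1_CUR against AFB1 changed from -0.39 (SE 0.36) to 0.29 (SE 0.23).

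IL18R1, the receptor of interleukin 18, spanned the widest ratio within the control group. Its CON levels were 0.612, 0.699, 0.455, 0.219 and 0.12 FPKM. The levels in AFB1 replicates 2 to 5 were 0.965, 0.514, 0.356 and 0.203 FPKM, and those in AFB1_CUR were 0.274, 1.54, 0.623, 0.391 and 0.328 FPKM. Except for replicate 2 of each AFB1-fed group, every library lay within the CON range. The estimates against CON were 0.25 (SE 0.56) in AFB1 and 0.47 (SE 0.53) in AFB1_CUR, and without the pair of libraries they were -0.21 (SE 0.50) and -0.06 (SE 0.46).

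IL18BP, the soluble inhibitor of interleukin 18, was the 1 gene of the 10 past the screening thresholds in AFB1 against CON. Of all 19404 genes tested in that comparison, 2.66% passed them (517 genes), so 1 of 10 is read against that share. CON had 2.72, 4.32, 3.79, 2.18 and 2.17 FPKM of IL18BP, AFB1 replicates 2 to 5 had 2.54, 1.73, 2.18 and 1.29 FPKM, and AFB1_CUR had 2.80, 3.78, 2.65, 1.96 and 2.35 FPKM. Of the 4 AFB1 libraries, 2 were below all of CON and 2 were inside its range. The gene fell by 0.64 on the log2 scale in AFB1 (SE 0.26, a fold of 0.642, edgeR unadjusted p = 0.0280), with a Benjamini-Hochberg adjusted p of 0.970 over all genes.

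Other treatments of the same data moved this call. The exact permutation test on log2(FPKM + 1) gave p = 0.0952 for 4 against 5 libraries, where the smallest two-sided p is 0.0159. The call was lost with limma on log2(FPKM + 1) (-0.44, under the fold threshold), in edgeR without CON replicate 2 (-0.52, unadjusted p = 0.0771), CON replicate 3 (-0.55, unadjusted p = 0.0690), AFB1 replicate 3 (-0.57, unadjusted p = 0.0727) or AFB1 replicate 5 (-0.54, unadjusted p = 0.0789), and in the fit that included AFB1 replicate 1 (-0.22, SE 0.34). It was kept without AFB1 replicate 2 and AFB1_CUR replicate 2 (-0.76, SE 0.29, unadjusted p = 0.0205). RNF121, the gene around it, changed by -0.27 in the same comparison (SE 0.11, unadjusted p = 0.0328), under the fold threshold, and whether reads of RNF121 entered the IL18BP count was not tested. In AFB1_CUR, the IL18BP estimate was 0.41 against AFB1 (SE 0.26, unadjusted p = 0.139) and -0.23 against CON (SE 0.24, unadjusted p = 0.355).

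IL1RN, the receptor antagonist, was at 1.05, 1.71, 0.987, 0.446 and 0.809 FPKM in CON. For AFB1 replicates 2 to 5 the values were 1.89, 1.25, 1.37 and 0.845 FPKM, and for AFB1_CUR 0.575, 3.64, 1.22, 0.443 and 1.48 FPKM. The CON range held 3 of the 4 AFB1 libraries and 3 of the 5 AFB1_CUR libraries. The log2 fold change against CON was 0.43 in AFB1 (SE 0.48, unadjusted p = 0.391) and 0.44 in AFB1_CUR (SE 0.46, unadjusted p = 0.353). Without the pair of libraries with high leukocyte markers the estimates were 0.26 (SE 0.42) and -0.11 (SE 0.39).

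AFB1 replicate 1 set IL1RN apart from every other gene of the axis. It held 38.1 FPKM from 6145 counts, 33.5 times the median of the other libraries. In the fit with all 15 libraries IL1RN was 3.76 higher in AFB1 than in CON on the log2 scale (SE 1.17, edgeR unadjusted p = 0.00613, adjusted p = 0.405), and fell by 3.34 in AFB1_CUR against AFB1 (SE 1.15, unadjusted p = 0.0112, adjusted p = 0.538). The exact permutation test with the same libraries gave p = 0.143 and p = 0.460. IL1R1 (7.80 FPKM) and IL1RAP (6.30 FPKM) were also at their highest of 15 libraries there, whereas IL1R2 (0.642), IL18BP (3.29), NLRP3 (0.632), IL18R1 (0.311) and CASP1 (0.741 FPKM) were within the range of the rest.

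IL1R2, the decoy receptor, was the lowest gene on average. CON had 0.333, 0.612, 0.372, 0.322 and 0.471 FPKM, AFB1 replicates 2 to 5 had 1.18, 0.534, 0.345 and 0.498 FPKM, and AFB1_CUR had 0.251, 0.902, 0.339, 0.391 and 0.439 FPKM. Replicate 2 of both AFB1-fed groups was above all of CON, and AFB1_CUR replicate 1 was below it. The estimate against CON was 0.58 in AFB1 (SE 0.38, unadjusted p = 0.152) and 0.03 in AFB1_CUR (SE 0.36). Without AFB1 replicate 2 and AFB1_CUR replicate 2, these were 0.17 (SE 0.33) and -0.26 (SE 0.30). In AFB1_CUR against AFB1 the estimate was -0.54 (SE 0.38, unadjusted p = 0.176). It passed the thresholds at -0.83 (SE 0.37, unadjusted p = 0.0400) when AFB1_CUR replicate 2 was left out, but not when AFB1 replicate 2 was left out as well (-0.43, SE 0.34).

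NLRP3, the inflammasome sensor, had the highest estimate of the axis in AFB1 against CON. CON libraries were at 0.519, 0.706, 0.458, 0.208 and 0.256 FPKM. AFB1 replicates 2 to 5 were at 1.42, 0.731, 0.693 and 0.311 FPKM, and AFB1_CUR at 0.540, 1.32, 0.602, 0.392 and 0.542 FPKM. In AFB1, 2 of 4 libraries were above all of CON and in AFB1_CUR 1 of 5 was. The log2 fold change was 0.85 in AFB1 against CON (SE 0.41, a fold of 1.81, unadjusted p = 0.0579, adjusted p = 0.970), 0.57 in AFB1_CUR against CON (SE 0.39, unadjusted p = 0.168) and -0.28 in AFB1_CUR against AFB1 (SE 0.41, unadjusted p = 0.504).

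The AFB1 estimate for NLRP3 lay near the threshold and crossed it with the choice of libraries and of fit. On the same 14 libraries it passed with DESeq2 (0.85, SE 0.43, unadjusted p = 0.0481). In edgeR it passed without CON replicate 2 (1.06, unadjusted p = 0.0295), without AFB1 replicate 5 (1.09, unadjusted p = 0.0190) and without AFB1_CUR replicate 2 (0.84, unadjusted p = 0.0450). Without AFB1 replicate 2 and AFB1_CUR replicate 2 together it was 0.46 (SE 0.37, unadjusted p = 0.235). The AFB1_CUR estimates moved as well: without AFB1_CUR replicate 2 they were 0.27 against CON and -0.57 against AFB1. Without AFB1 replicate 2, the estimate in AFB1_CUR against AFB1 was 0.096.

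CASP1, the protease, had the next highest estimate in AFB1 against CON. CON had 0.870, 1.45, 0.902, 0.589 and 0.268 FPKM, AFB1 replicates 2 to 5 had 1.98, 1.81, 1.39 and 0.613 FPKM, and AFB1_CUR had 0.736, 3.59, 0.995, 0.497 and 1.31 FPKM. Against CON, 2 of 4 AFB1 libraries and 1 of 5 AFB1_CUR libraries were above the highest value. The estimates were 0.81 in AFB1 (SE 0.51, unadjusted p = 0.134) and 0.69 in AFB1_CUR (SE 0.48, unadjusted p = 0.179), and 0.66 (SE 0.45) and 0.11 (SE 0.42) without the pair of libraries. Its overlapping neighbour LOC101117272 passed the thresholds in AFB1 against CON (0.62, SE 0.23, unadjusted p = 0.0157, adjusted p = 0.970), with 3 of 4 AFB1 libraries above all of CON. The neighbour did not pass with limma on log2(FPKM + 1) (unadjusted p = 0.0549) or log2(FPKM + 0.1) (0.0530), or without CON replicate 4 (0.57, under the fold threshold), AFB1 replicate 3 (0.52) or AFB1 replicate 4 (0.52). That gene was named after its values were seen.

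**Figure D2:**
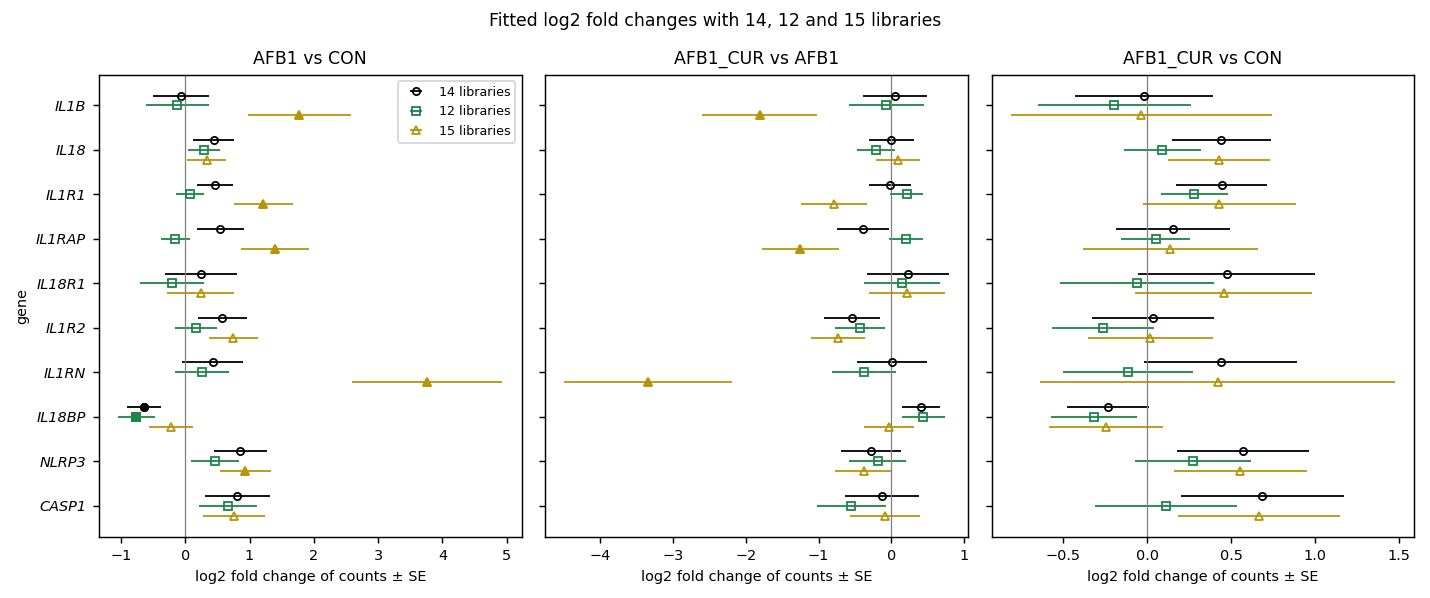
Fitted log2 fold change of counts ± SE (horizontal axes, scaled separately) for each gene in the 3 comparisons, with 14 libraries (circles), without AFB1 replicate 2 and AFB1_CUR replicate 2 (12 libraries, squares) and with AFB1 replicate 1 (15 libraries, triangles). Filled symbols passed an unadjusted p under 0.05 with a fold over 1.5: IL18BP with 14 and 12 libraries in AFB1 against CON, and otherwise only 15-library estimates, the largest 3.76 for IL1RN.

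Over the 10 genes together, 8 estimates were above 0 in AFB1 against CON, where 55.6% of all tested genes were, and the median was 0.45 against 0.03 for all genes. In AFB1_CUR against CON, 8 were above 0 (52.7% of all genes), with a median of 0.44 against 0.02, and 0 of 10 passed the thresholds, which 2.74% of all genes did. Both comparisons use the same CON libraries. In AFB1_CUR against AFB1, 5 were above 0 (50.5% of all genes), the median was -0.01 and 0 of 10 passed, against 1.80% of all genes. For none of the 10 genes did the groups of any comparison separate without overlap in FPKM. Of all tested genes, 1.61%, 0.742% and 0.763% did in AFB1 against CON, AFB1_CUR against AFB1 and AFB1_CUR against CON.

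These medians moved with the libraries used. Without AFB1 replicate 2 and AFB1_CUR replicate 2, 6 of 10 estimates were above 0 in AFB1 against CON (median 0.12) and 5 of 10 in AFB1_CUR against CON (median -0.01), while 50.8% and 51.0% of all genes were. In AFB1_CUR against AFB1, 4 of 10 were (52.0% of all genes). In these fits 1 of 10 (IL18BP), 0 and 0 passed the thresholds in AFB1 against CON, AFB1_CUR against AFB1 and AFB1_CUR against CON, against 3.02%, 2.44% and 1.69% of 19196 genes. In the same fits the median of the 11 macrophage and monocyte markers went from 0.54 to 0.25 and from 0.53 to 0.18, and that of the 7 B and plasma cell markers from 2.28 to 0.12 and from 2.59 to -0.20. The part of these cells in the level of the 10 genes was not tested. With all 15 libraries, 5 of 10 passed the thresholds in AFB1 against CON (IL1B, IL1R1, IL1RN, IL1RAP and NLRP3), 3 in AFB1_CUR against AFB1 (IL1B, IL1RN and IL1RAP) and 0 in AFB1_CUR against CON, where 6.99%, 6.08% and 1.71% of 19584 genes passed.

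After Benjamini-Hochberg adjustment in edgeR, 0 of the 10 genes and 0 genes of the whole table (0.0%) had a p under 0.05 in any of the 3 comparisons. The number below 0.05 before adjustment was 973 in AFB1 against CON, 549 in AFB1_CUR against AFB1 and 1063 in AFB1_CUR against CON. DESeq2 on the same 14 libraries gave 22, 6 and 2 genes past the adjusted threshold, and none of the 10 genes was among them. By the unadjusted thresholds, DESeq2 called 2 of the 10 genes in AFB1 against CON (IL18BP and NLRP3) and 0 in both other comparisons, where 3.22%, 2.08% and 3.07% of all genes passed in AFB1 against CON, AFB1_CUR against AFB1 and AFB1_CUR against CON. With limma on log2(FPKM + 1), 0 of the 10 passed in each, against 0.567%, 0.448% and 0.433% of all genes.

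**Figure D3:**
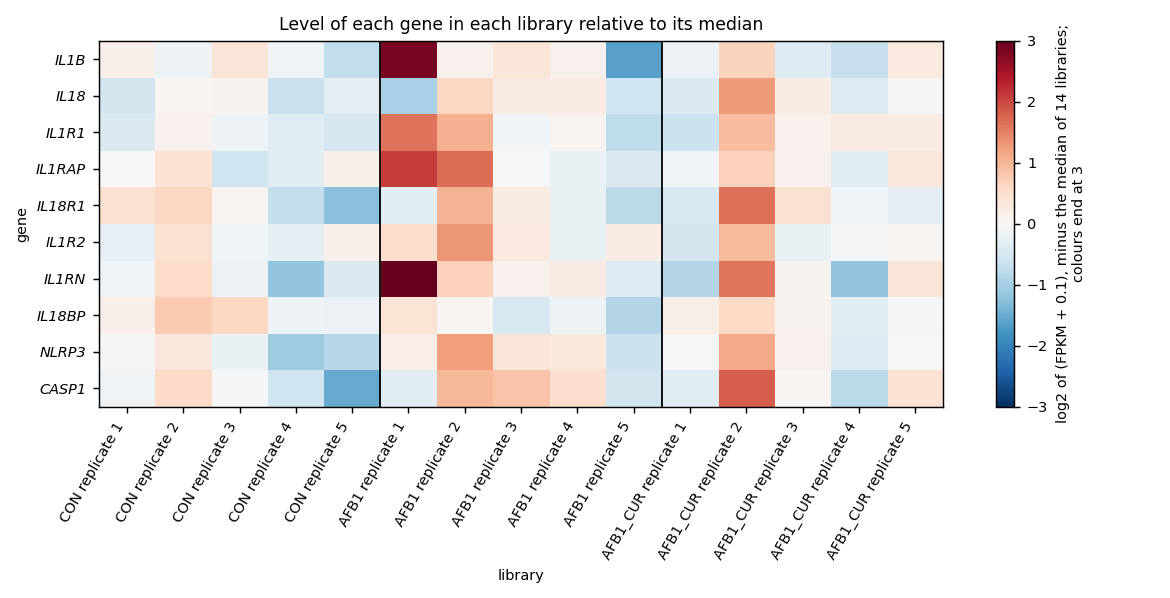
Level of each gene (rows, by role) in each of the 15 libraries (columns, by diet group), as log2 of (FPKM + 0.1) minus the median over the 14 libraries without AFB1 replicate 1. AFB1 replicate 2 and AFB1_CUR replicate 2 are above the median for all 10 genes, CON replicate 4 for 0, and AFB1 replicate 1 combines the highest IL1B and IL1RN with the lowest IL18.

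The levels of the genes varied together across sheep. AFB1_CUR replicate 2 held the highest level of 5 genes and AFB1 replicate 2 of 4, and IL18BP was highest in CON replicate 2. CON replicate 2 was above the median for 9 of the 10 genes and AFB1 replicate 5 for 1. Levels spanned 3.34-fold (IL18BP) to 13.4-fold (CASP1) between the lowest and the highest of the 14 libraries.

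Over the 14 libraries, all 45 pairs of genes had an r above 0 on log2(FPKM + 1), with a median Pearson's r of 0.709, and 33 passed a Benjamini-Hochberg adjusted permutation p under 0.05. On log2 CPM with TMM scaling of the same libraries, 43 were above 0, the lowest r was -0.0848, the median was 0.559 and 20 passed. The 33 pairs rest on AFB1 replicate 2 and AFB1_CUR replicate 2: over the other 12 libraries the median r on log2(FPKM + 1) was 0.437 and 1 pair passed. This pair was NLRP3 and CASP1, sensor and protease, with r = 0.884 over 12 libraries (permutation p = 0.00015, adjusted p = 0.00675). Over 14 libraries it had r = 0.905 and rho = 0.952 (permutation p = 1e-05 for both, the smallest that 100000 resamples can give), and removing the group means left r at 0.886. The pair farthest from the median level of NLRP3 is the same pair of libraries, so r without them is also 0.884.

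Of the other pairs, some had a far lower r without these libraries. The decoy receptor IL1R2 and IL1RAP had r = 0.863 over 14 libraries (permutation p = 0.00064) and 0.403 over 12 (p = 0.194). IL1RN and CASP1, with the highest r of 14 libraries at 0.914 (permutation p = 1e-05), had 0.788 over 12 (p = 0.00262, adjusted p = 0.0589) and 0.198 over all 15 (p = 0.448). IL18BP had the lowest median r with the other genes, 0.417, and IL18 and IL18BP, cytokine and inhibitor, had r = 0.462 (permutation p = 0.0989). With the group means removed that pair had r = 0.779 (permutation p = 0.00058, adjusted p = 0.00137), IL18BP and NLRP3 went from 0.411 to 0.859, and 41 of the 45 pairs passed with a median r of 0.764. That setting keeps AFB1 replicate 2 and AFB1_CUR replicate 2, and over the 12 libraries, with group means kept, r was 0.318 for IL18 and IL18BP (permutation p = 0.315) and 0.354 for IL18BP and NLRP3 (permutation p = 0.259).

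**Figure D4:**
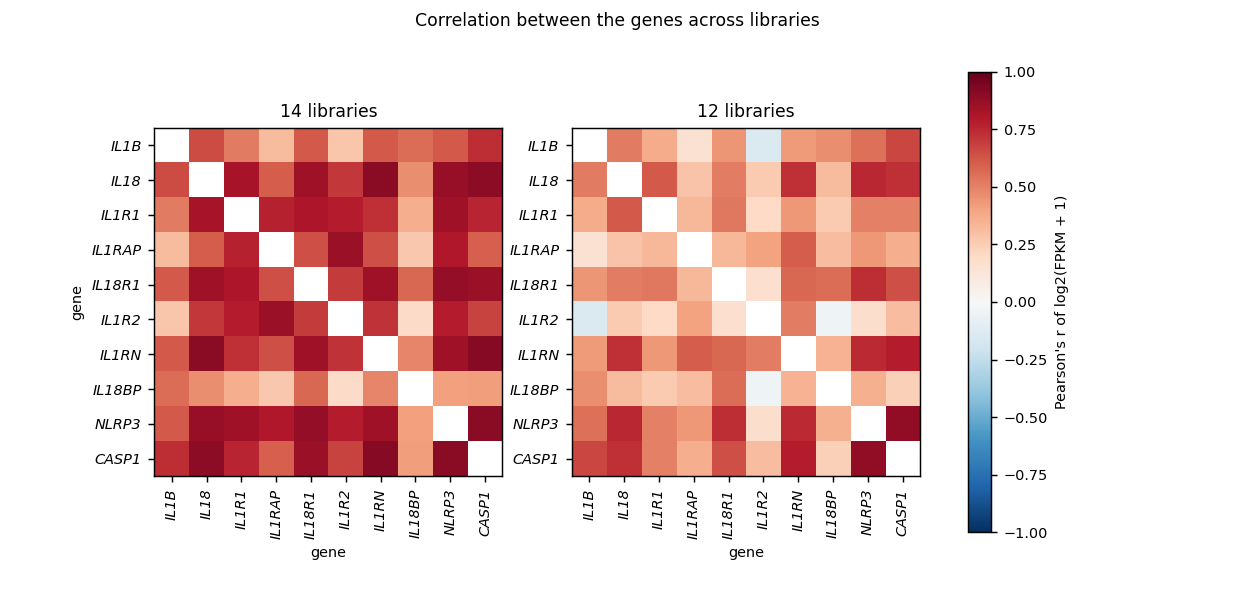
Pearson's r of log2(FPKM + 1) between each pair of genes across libraries, with 14 libraries (left) and without AFB1 replicate 2 and AFB1_CUR replicate 2 (right); the diagonal is blank. All 45 pairs are positive on the left, with a median of 0.709, and the median is 0.437 on the right, where NLRP3 and CASP1 stay at 0.884.

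Markers of cell types also moved with the genes within the 12 libraries. With the mean level of 11 macrophage and monocyte markers, r was above 0 for all 10 genes, and 6 passed a Benjamini-Hochberg adjusted permutation p under 0.05 among the 50 relations computed. With the T and NK cell markers (3 passed) and the endothelial markers (5 passed) r was also above 0 for all 10 genes, and with the B and plasma cell markers for 8 (0 passed). Among the 5 with endothelial markers, IL1B fell from r = 0.715 to 0.266 without the 2 libraries farthest from the median of the markers. IL18R1 fell from 0.661 to 0.459 and NLRP3 from 0.68 to 0.544, while CASP1 stayed at 0.666 and IL1R1 at 0.755. For CASP1 and macrophage markers, r was 0.853 and rho 0.881 (permutation p = 0.00049 and 0.00032, adjusted p = 0.00712 for r), and r was 0.771 without the 2 libraries farthest from the median of the markers. For NLRP3 and the same markers, r was 0.838 and rho 0.818 (permutation p = 0.00111 and 0.00194, adjusted p = 0.00925), and 0.746 without the farthest 2. With the T and NK cell markers, r was 0.831 for CASP1, 0.824 for NLRP3 and 0.785 for IL18R1 (permutation p = 0.00047, 0.00074 and 0.00138). With the macrophage markers, IL1B had r = 0.718 and rho = 0.741 (permutation p = 0.00805 and 0.00766, adjusted p = 0.0366), and 0.493 without the farthest 2.

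With the mean of 8 proximal tubule markers, r was below 0 for all 10 genes, and 4 passed the adjustment. IL18 had r = -0.779 and rho = -0.790 (permutation p = 0.00297 and 0.0036, adjusted p = 0.0165), and -0.838 without the 2 farthest libraries. CASP1 had r = -0.851 and rho = -0.867 (permutation p = 0.00057 and 0.00042, adjusted p = 0.00712), and -0.813 without the 2 farthest. IL1R2, IL1RAP and IL18BP passed the adjustment with none of the 5 marker lists compared. For IL1R2 and IL1RAP this rests on few libraries: without the 2 farthest of each list, r for IL1R2 went from 0.162 to 0.625 with the macrophage markers, from 0.0496 to 0.657 with the T and NK cell markers and from 0.14 to 0.729 with the endothelial markers, and r for IL1RAP from 0.359 to 0.76 with the T and NK cell markers. IL1R1 had its highest r, 0.844, with 6 endothelial markers (rho = 0.853, permutation p = 0.00029 and 0.00084, adjusted p = 0.00712, r = 0.755 without the 2 farthest). The markers and the genes come from the same libraries, and what links them was not tested.

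Genes with the most similar pattern over the 14 libraries, by Pearson's r of log2 CPM among 19404 genes, are given as a description. They were RUBCNL, RNF122 and CYTH4 for CASP1 (r = 0.977, 0.955 and 0.954), LOC101111069, DOCK10 and IL10RA for NLRP3 (0.975, 0.948 and 0.933), and SLA, PLCB2 and ITGAL for IL18R1 (0.967, 0.958 and 0.956). For IL18 they were GEN1, SLC38A1 and C16H5orf34 (0.962, 0.949 and 0.948), and for IL1B LOC114109624, CCDC141 and ZNF512 (0.926, 0.902 and 0.90). IL1RN was most like FCRLA, PNMA2 and ADAM33 (0.921, 0.914 and 0.902), IL1R1 most like DCLRE1B, MID1 and TNFSF8 (0.919, 0.918 and 0.909), IL1RAP most like F2RL2, APCDD1 and SPTLC2 (0.896, 0.886 and 0.867) and IL1R2 most like CAB39L, PEBP4 and IFI30 (0.882, 0.873 and 0.865). IL18BP was most like LOC132658529, FOS and CCN1 (0.847, 0.844 and 0.841), the last 2 being immediate early genes. No gene of the 10 was among the 3 most similar to another.

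The wider pathway was taken from 4 lists. Of other interleukin 1 family ligands and receptors, 9 of 14 were in the table under the listed symbols and 6 could be tested, and 0 passed the thresholds in any comparison. The same was true of 19 tested inflammasome sensors, adapters and effectors and of 17 interleukin 1 receptor signalling genes. Of 12 tested genes that interleukin 1 or 18 is known to induce, 1 passed, in both comparisons with AFB1_CUR, and 0 in AFB1 against CON. Of all genes, 2.66%, 1.80% and 2.74% passed in AFB1 against CON, AFB1_CUR against AFB1 and AFB1_CUR against CON. The medians of the 4 lists in AFB1 against CON were 0.16, 0.07, 0.06 and 0.28 on the log2 scale, against 0.03 for all genes, and with 12 libraries they were -0.06, 0.12, 0.11 and 0.23, against 0.01 for all genes.

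The gene that passed was MMP9, a matrix metalloproteinase of leukocytes. It was at 14.5 FPKM in AFB1_CUR replicate 2 and at 0.162 to 0.514 FPKM in the other 13 libraries, and its log2 fold change was 3.19 against AFB1 (SE 1.16, edgeR unadjusted p = 0.0160) and 2.72 against CON (SE 1.04, unadjusted p = 0.0202). Without AFB1 replicate 2 and AFB1_CUR replicate 2 these were 0.11 (SE 0.46) and -0.41 (SE 0.41).

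Among the other ligands, IL1A, the gene of interleukin 1 alpha, had 0 to 0.809 FPKM over the 14 libraries and 2.00 FPKM in AFB1 replicate 1. Its estimate in AFB1 against CON was 0.73 (SE 0.75). IL33, an alarmin of stromal and endothelial cells, was at 1.04 to 1.94 FPKM in CON and 1.62 to 3.17 FPKM in AFB1_CUR, with an estimate of 0.54 (SE 0.24, unadjusted p = 0.0438) under the fold threshold, and of 0.48 (SE 0.26, unadjusted p = 0.0937) with 12 libraries. IL18RAP, the second chain of the interleukin 18 receptor, had 0.183 to 1.60 FPKM and estimates of 0.39 (SE 0.49) and 0.49 (SE 0.46) against CON in AFB1 and AFB1_CUR, which were 0.13 (SE 0.52) and 0.28 (SE 0.48) with 12 libraries.

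SIGIRR, an inhibitory receptor of this family, was far above the 10 genes, at 37.6 to 46.4 FPKM in CON. AFB1 replicates 2 to 5 had 25.5, 36.2, 25.6 and 35.8 FPKM, all below every CON library, and AFB1_CUR had 35.8, 32.6, 35.8, 35.3 and 38.7 FPKM. Its estimate in AFB1 against CON was -0.42 (SE 0.16, edgeR unadjusted p = 0.0187, adjusted p = 0.970), under the fold threshold, and -0.32 (SE 0.14, unadjusted p = 0.0377) with 12 libraries. MYD88, the adapter of these receptors, was at 7.89 to 9.71 FPKM in CON and at 14.98, 9.91, 10.1 and 9.80 FPKM in AFB1 replicates 2 to 5, all above CON. Its estimate was 0.34 (SE 0.16, unadjusted p = 0.0465, adjusted p = 0.970), also under the fold threshold, and 0.21 (SE 0.14, unadjusted p = 0.162) without AFB1 replicate 2 and AFB1_CUR replicate 2. Over the 4 lists, 5 of 54 tested genes did not overlap in FPKM between AFB1 and CON, where 1.61% of all tested genes did not. MYD88, UBE2N and BRCC3 were above CON, and SIGIRR and GSDME below. FPKM lacks the library scaling (TMM) of the fits, in which AFB1 replicate 5 had the lowest factor of the 14 libraries, 0.850. Overlap of scaled values was not tested. In AFB1_CUR against AFB1 and AFB1_CUR against CON, 0 of 54 separated in FPKM, where 0.742% and 0.763% of all tested genes did. UBE2N, BRCC3 and GSDME were named after their values were seen.

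Of the inflammasome partners, the adapter ASC appeared as LOC101105208, at 3.56 to 18.6 FPKM, with -0.38 (SE 0.33) in AFB1 against CON and 0.55 (SE 0.33, unadjusted p = 0.117) in AFB1_CUR against AFB1. With 12 libraries these were -0.60 (SE 0.33) and 0.59 (SE 0.34), and without AFB1 replicate 2 alone the latter passed the thresholds (0.76, SE 0.35, unadjusted p = 0.0488). That row was named after its values were seen. GSDMD, the pore protein cut by caspases, was at 1.11 to 3.88 FPKM with an estimate of 0.03 (SE 0.31) in AFB1 against CON, and of -0.23 (SE 0.29) with 12 libraries. CASP8 was at 4.88 to 13.7 FPKM, with estimates of 0.26 (SE 0.19) and, with 12 libraries, 0.12 (SE 0.15). TNFAIP3, a feedback inhibitor of NF-κB, had 0.979 to 7.75 FPKM and estimates of 0.78 (SE 0.47, unadjusted p = 0.12) and 0.56 (SE 0.45) against CON in AFB1 and AFB1_CUR, which were 0.53 (SE 0.43) and 0.12 (SE 0.40) with 12 libraries. IL6 was listed at 0 in 10 of the 14 libraries and reached 0.259 FPKM, and it was below the count filter.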

How the data were processed

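Kidney mRNA libraries of 15 sheep were grouped by their titles into CON, AFB1 and AFB1_CUR, 5 each. The authors deposited raw counts and FPKM per gene side by side in 1 table. Per the labels, processing used cutadapt 1.9, HISAT2 2.2.1 and StringTie 2.1.6, and edgeR and DESeq2 are also named there. How reads were counted, with or without strand, was not given in the sources used here, and neither was a genome build. The table holds 25592 genes, and depth is given as the summed counts. No 2 libraries held identical values.

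Counts were fitted with edgeR 4.0.16 (R 4.3.3), with TMM scaling and the quasi-likelihood test, on 14 libraries in 1 model of 3 groups. Genes with a mean count of at least 10 were tested. AFB1 replicate 1 was shown apart because its markers are those of liver. Calls used the study's screening thresholds, a p under 0.05, taken here as unadjusted, with a fold change over 1.5, and Benjamini-Hochberg adjusted p was counted beside them. Deposited FPKM values were used for levels, for two-sided exact permutation tests on log2(FPKM + 1) and for correlations with 100000 resamples (scipy 1.17.1). The tests and correlations were tested on simulated data. Cell type marker levels are means of log2(FPKM + 1) over a list. Sheep shared pens, and the labels do not say which, so p-values measure the spread between these libraries.

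Alternatives were DESeq2 1.42.0, limma 3.58.1 on log2(FPKM + 1) and log2(FPKM + 0.1), other scaling and filters, all 15 libraries, a replicate block and each library left out. The fit of 12 libraries was chosen after seeing the data. The genes and lists were chosen with earlier results of these data known. Named genes were all 10 genes of the axis, every gene of 4 pathway lists past the thresholds, a fixed set of relatives (IL1A, IL33, IL18RAP, SIGIRR, GSDMD, CASP8, MYD88, IL6 and TNFAIP3, with PYCARD and CASP4 not found under these symbols) and the 3 most similar genes of each. No sequence of the genes themselves was used here.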

Additional observations from a re-analysis of the deposited data

Results flagged for a closer look

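Levels were compared within each group of 4 or 5 libraries by the gap of the highest or lowest library to its neighbour as a share of the range, for 40 sets of values. By chance about 1 in 20 independent sets would stand out. Here 8 did, but the sets are not independent, since the genes vary together across libraries, AFB1 enters with and without replicate 1, and the 8 come from 3 libraries, so the count is not read against that rate. In AFB1_CUR, replicate 2 stood apart at 0.902 FPKM of IL1R2, 3.59 of IL18, 1.54 of IL18R1, 1.32 of NLRP3 and 3.59 of CASP1. In AFB1 without replicate 1, replicate 2 stood apart at 4.75 FPKM of IL1RAP. In AFB1 with replicate 1, that replicate stood apart at 6.0 FPKM of IL1B and 38.1 FPKM of IL1RN.

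AFB1 replicate 1, which the comparisons of 14 libraries do not use, was above every CON library for IL1B (6.0 FPKM), IL1R1 (7.80), IL1R2 (0.642), IL1RN (38.1) and IL1RAP (6.30).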

How the results depend on the processing

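Of 708 alternative estimates of the 10 genes, 681 were on the same side of the thresholds without a counted reversal. A further 13 newly passed without a reversal, 6 no longer passed (all IL18BP) and 8 reversed, some of them also newly passing. A change of sign was not counted as reversed where the 14-library estimate was smaller than its own SE and neither value passed, which held for 58 of the 66 changes of sign. With all 15 libraries, IL1B reversed to 1.78 in AFB1 against CON and to -1.81 in AFB1_CUR against AFB1, where IL1RN also reversed, to -3.34, and IL18BP, to -0.030. These reversed estimates of IL1B and IL1RN also newly passed the thresholds. IL1RAP reversed to -0.15 in AFB1 against CON and 0.20 in AFB1_CUR against AFB1 with 12 libraries. With single libraries left out it ranged from -0.14 (without AFB1 replicate 2) to 0.73, and from -0.58 to 0.29 (without AFB1 replicate 2). Genes past the thresholds in AFB1 against CON, AFB1_CUR against AFB1 and AFB1_CUR against CON numbered 1369, 1191 and 335 with 15 libraries, and 232, 123 and 214 with a filter of 1 FPKM in 5 libraries, which tests 6 of the 10 genes. They numbered 867, 707 and 928 without a filter, and 110, 87 and 84 with limma on log2(FPKM + 1). AFB1_CUR against CON also gave 346 with limma on log2(FPKM + 0.1) and 325 with 12 libraries. Leaving out single libraries gave 460 to 819, 323 to 628 and 289 to 720, the extremes that moved the count by over 1.5 times being AFB1 replicate 5 (819), AFB1 replicate 2 (628) and AFB1_CUR replicate 2 (289). Of the 10 genes, AFB1 against CON had 5 past the thresholds with 15 libraries, 2 with DESeq2, 0 with limma on log2(FPKM + 1), and 0 to 2 with single libraries left out. AFB1_CUR against AFB1 had 3 with 15 libraries and 0 to 1 with single libraries left out. Correlated pairs numbered 20 on log2 CPM, 20 by Spearman's rho, 19 with 15 libraries and 1 with 12, and 27 to 34 with single libraries left out. The causes of these changes were not tested.

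Replicate numbers were shared between groups, but only 4 of 13 same-numbered pairs had correlated deviations over 0.1 (range -0.126 to 0.444), and 6 of 14 libraries correlated best with their own number, so the numbers were not taken as pairing the sheep. With the number as a replicate block, 2 of the 10 genes passed in AFB1 against CON (IL18BP, and NLRP3 at 0.88, unadjusted p = 0.00976), 0 in AFB1_CUR against AFB1 and 1 in AFB1_CUR against CON (NLRP3 at 0.60, unadjusted p = 0.0397), where 2.45%, 1.77% and 2.98% of all genes passed. LOC101117272 was under the fold threshold in AFB1 against CON with it (0.58).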
